A study of Homo sapiens with 13 samples.

Results

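The elements described here cover positions of scoliosis variants at the SOX6 locus on chromosome 11. They were chosen by position alone, as every pair of a reference and an alternative allele on chromosome 11 between 15500000 and 17000000 in both count tables. This gave 189 of the 4468 allele pairs of the library, with 73 of its 1579 reference elements and 189 of its 4468 alternative elements. The 73 positions ran from 15999644 to 16229382, counted from 1 on hg19, over 229.7 kb. From general knowledge of hg19 this stretch lies in the SOX6 gene on the short arm of the chromosome, which is transcribed towards lower coordinates. Exons and introns were not assigned, because the annotation used here is of a different build.

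SOX6 is a transcription factor of the SoxD group. Together with its close relative SOX5 it binds DNA beside SOX9, the master regulator of cartilage, and is needed for chondrocytes to form cartilage matrix and to pass through the growth plate. Adolescent idiopathic scoliosis is a spinal curvature without known cause that develops in growing children, and the SOX6 region is one of those in which common variants have been associated with it. Most such variants lie outside coding sequence, where a base change could alter how strongly an enhancer drives a gene.

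The study measured this with a lentiviral massively parallel reporter assay. Each element was placed in a reporter whose transcript carries a short barcode, a lentivirus inserted the reporter into the chromosomes, and RNA counts over DNA counts of its barcodes gave its activity. The library was put into TC28a2, an immortalized human chondrocyte line, and into SW1353, a human chondrosarcoma line used in place of chondrocytes. Both lines received the same kind of infection and 48 h of incubation, with no other treatment. DNA and RNA of each line were read in 3 replicates, which gave 12 count libraries, and the labels do not say whether the replicates were separate cultures. The p-values therefore measure the spread between these samples, which may be technical. Each line is 1 cell line, and elements were read outside their place in the genome. The tables hold barcode counts of the reporter and no transcripts of the cells, so the identity of the lines could not be checked on marker genes.

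Substitutions were tested at 58 positions, each with the 3 bases other than the reference and 1 common reference element, which gave 174 pairs. The element names do not say which base is the allele associated with scoliosis, so a substitution named here need not be a risk allele. The other 15 positions held 10 deletions and 5 insertions. The names of the scrambled controls span 200 bp centred on a variant position. The whole oligos were not used here, so the bases shown are those that the element names give for the longest deletion and insertions. In the deletion the capitals mark the bases removed, and in the insertions the bases added.
deletion at 16210951: TGTGTGTGTGCATGTG
insertion at 16015006: AGA
insertion at 16206447: AGA
The first removes a run made mostly of TG repeats, and both insertions add the same bases at separate positions. The remaining deletions remove GT at 16069247, AT at 16127889, AAC at 16226126 and a single base at 6 positions. The remaining insertions add a single base at 3 positions.

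All 189 pairs and 262 elements passed the minimum of 10 DNA barcodes in every replicate of both lines. In TC28a2 an element had 33 to 1428 DNA counts per replicate, with a median of 360, and 86 to 6989 RNA counts, with a median of 1234. In SW1353 it had 57 to 2792 DNA counts, with a median of 601.5, and 38 to 8855 RNA counts, with a median of 966.5. The locus was covered more thinly than the library as a whole: the median number of DNA barcodes per element and replicate was 98.5 against 187 over all elements in TC28a2, and 97 against 220 in SW1353. For RNA barcodes the medians were 123 against 231 in TC28a2 and 55 against 120 in SW1353. The lowest number of RNA barcodes in the locus was 17 in TC28a2 and 6 in SW1353. Total counts per library were 5523658 to 5738307 in TC28a2 DNA, 22048832 to 22212124 in TC28a2 RNA, 15582658 to 15626361 in SW1353 DNA and 37571404 to 37631975 in SW1353 RNA.

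Few elements of the locus drove transcription above the scrambled controls. Activity is given here as the log2 ratio of RNA to DNA, with the median scrambled control of a line set to 0, and an element is called above or below that control where the adjusted p of edgeR's quasi-likelihood test was under 0.05. In TC28a2, 9 of 73 reference elements (12.3%) were above, where 27.4% of all scoliosis reference elements were, and 3 were below, where 2.76% of all were. In SW1353, 16 of 73 (21.9%) were above against 37% of all, and 1 was below against 1.93%. The median activity of the 73 was 0.18 in TC28a2 and 0.27 in SW1353, beside medians of 0.26 and 0.36 over all scoliosis reference elements. These shares were read from elements with fewer barcodes than the rest of the library, and the part of that depth in the lower shares was not tested. Scrambled controls themselves were called above in 9.95% of cases in TC28a2 and 12.6% in SW1353, and below in 6.28% and 13.1%. The share of reference elements above in TC28a2 was thus close to that of scrambled sequences.

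Alternative elements gave like shares. Among the 189 alternative elements, 26 were above and 8 below in TC28a2, and 31 were above and 2 below in SW1353. Calls below made up 2.54% of all scoliosis elements in TC28a2 and 1.62% in SW1353. Over all 262 elements this made 35 (13.4%) above in TC28a2, where 27.2% of all scoliosis elements were, and 47 (17.9%) in SW1353, where 37.8% were. Without the highest barcode of each library these counts were 70 and 89, and with the median of all elements as the level of comparison 5 and 4. Of the elements above, 21 were above in both lines, 14 in TC28a2 alone and 26 in SW1353 alone. Those above in both lines were 60.0% of the elements above in TC28a2 and 44.7% of those in SW1353, beside 82.4% and 59.4% over all scoliosis elements. The 6 reference elements above in both lines were joined by 3 above in TC28a2 alone and 10 above in SW1353 alone. They were 66.7% and 37.5% of the reference elements above in each line, beside 83.8% and 62.2% over all scoliosis reference elements. Calls often ended when a replicate was left out. Of the 9 reference elements above in TC28a2, 3 were above when any 1 replicate was left out. Of the 16 in SW1353, 4 were. The share above was lower over the whole library too. With 1 replicate left out it was 17.6% to 18.4% of all scoliosis elements in TC28a2, beside 27.2% with all replicates. In SW1353 it was 31.2% to 31.5%, beside 37.8%. These counts of calls do not show that the lines differ, and the difference was tested as such (further on).

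The most active sequence of the locus was the one around position 16163426, where the reference base is T. In TC28a2 its reference element had 1.07, 0.98 and 1.37 in the 3 replicates, and in SW1353 1.34, 1.74 and 1.53. All 6 values lay above 0, the level of the median scrambled control, and the lowest of SW1353 lay just under the highest of TC28a2. The fitted activity was 1.14 (SE 0.11, 2.20-fold) in TC28a2, with an adjusted p of 4.79e-05 in edgeR, and 1.54 (SE 0.11, 2.90-fold) in SW1353, with an adjusted p of 1.60e-06. The highest of the 191 scrambled controls had 1.27 in TC28a2 and 1.63 in SW1353, above these values, and their 95th percentile was 0.65 and 0.73. The 3 alternative elements at this position carry the same sequence with another base at its centre. They had 0.98 to 1.07 in TC28a2 and 1.41 to 1.45 in SW1353, and each was called above in both lines. None of the 3 substitutions here moved activity by as much as its SE. The reference element was well covered, with 901 to 1070 DNA counts and 6019 to 6804 RNA counts per replicate in TC28a2. All 4 alleles were also above in both lines when any 1 replicate was left out, when RNA and DNA were taken as counts per barcode, and when the median of all elements took the place of the scrambled controls. In SW1353 they were the only elements of the locus above in either of the last 2 settings. In TC28a2 all 4 reached barcode position 500 in a library, where the deposited tables stop, so that an unknown number of their barcodes is missing there. In SW1353 none of them did.

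At 2 other positions every allele was above in both lines. At 16180974, with the reference base G, the reference element had 0.52, 0.56 and 0.68 in TC28a2 and 0.82, 0.61 and 0.63 in SW1353. Its replicates differed little, and the fitted values were 0.59 (SE 0.12) and 0.69 (SE 0.14), with adjusted p-values of 0.00495 and 0.00249 in edgeR. Its alternatives reached 0.39 to 0.48 in TC28a2 and 0.67 to 0.79 in SW1353. At 16204622, with the reference base A, the reference element had 0.69, 0.86 and 0.26 in TC28a2 and 0.29, 0.66 and 0.77 in SW1353. Here the replicates spread more widely, yet none fell to 0, and the fitted values were 0.60 (SE 0.14) and 0.57 (SE 0.14). The alternatives at 16204622 had 0.58 to 0.78 and 0.57 to 0.89. Both reference elements were above when any 1 replicate was left out. As counts per barcode, 16180974 had 0.54 in TC28a2 and 0.13 in SW1353, and 16204622 had 0.35 and -0.03, so that neither was called in SW1353 and the second changed sign there. At 16188877 all 4 alleles were above in TC28a2, at 0.46 to 0.53, and 3 of 4 in SW1353, at 0.31 to 0.62. In SW1353 both alleles of the insertion positions 16191117 and 16206447 were above as well, and at neither position was an allele above in TC28a2.

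Some high reference elements had 1 replicate well above the others, or 1 barcode with most of the RNA counts of a replicate. At 16178626 the reference element had 0.81, 0.01 and 1.36 in TC28a2, and 52.8% of the RNA counts of the highest replicate came from 1 barcode. Its fitted activity of 0.73 became 0.47 when the highest barcode of each library was left out, and was called above both ways. At 16195941 the reference element had 0.42, 0.97 and 1.68 in SW1353 and 1.09, -0.06 and 0.03 in TC28a2. It was called above only in SW1353, at 1.02 (SE 0.25), and its high value in TC28a2 came from a single replicate. At 16203660 the reference element had 1.39, 0.85 and 0.56 in SW1353, with 61.1% of RNA counts of the first of these in 1 barcode, and its fitted 0.94 became 0.61 without the highest barcodes. The reference element at 16208865 had the fifth highest value in SW1353, 0.86, from replicates of 0.21, 0.39 and 2.01, and did not pass the test (adjusted p = 0.0627 in edgeR).

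The sequence around 16041156, where the reference base is T, had the lowest mean over its alleles in both lines, -0.79 in TC28a2 and -0.45 in SW1353. Its reference element had -0.50, -0.84 and -0.99 in TC28a2 and -0.68, -0.48 and -0.63 in SW1353, so that all 6 replicates lay under the median scrambled control. The fitted values were -0.78 (SE 0.19) and -0.59 (SE 0.20), with adjusted p-values of 0.00996 and 0.0324 in edgeR, and this was the only reference element below in both lines. In SW1353 the reference element at 16223830 was lower in the fitted value, at -0.66, and was not called. All 4 alleles were below in TC28a2, at -1.09 to -0.56, and 2 of 4 in SW1353, where the range was -0.60 to -0.24. In TC28a2 the reference elements at 16199331 (-0.51, SE 0.16) and 16215541 (-0.55, SE 0.18) were below too. At 16199331 the C and G alternatives were below as well, while the A alternative had -0.59, -0.54 and 0.95, and 60.2% of the RNA counts of that last replicate came from 1 barcode. The call at 16041156 held in 1 of the 3 settings that leave out a replicate in each line, and those at 16199331 and 16215541 in none. As counts per barcode, the reference element at 16041156 had -0.58 in TC28a2 and 0.06 in SW1353. The lowest scrambled controls had -0.98 in TC28a2, above the lowest allele of 16041156 there, and -1.59 in SW1353, below all its alleles.

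Calls were counted in windows along the locus. The 50 kb from 16150001 to 16200000 held 14 reference elements, of which 5 were above in TC28a2 and 9 in SW1353, with median activities of 0.41 and 0.62, where 27.4% and 37% of all scoliosis reference elements were above. The 50 kb from 16200001 to 16250000 held 42, the densest stretch, of which 4 and 6 were above, with medians of 0.09 and 0.24. Of the 17 reference elements at lower coordinates none was above in TC28a2 and 1 was in SW1353. These windows were laid after earlier results of the data were known, and the difference between them was not tested.

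Elements that overlap share part of their sequence. Shared lengths are given here on the assumption that each element spans 200 bp, as the names of the scrambled controls do. Whether overlapping elements were more alike than others was not tested. The median distance between neighbouring positions was 946.5 bp, and 10 pairs of neighbours lay under 200 bp apart. The reference elements of these 10 differed by a median of 0.29 in TC28a2 and 0.22 in SW1353, beside 0.34 and 0.38 for the other 62 neighbouring pairs. The reference element at 16041156, low in both lines, shares 51 bp with the one at 16041305, which had 0.32 in TC28a2 and 0.28 in SW1353. The active element at 16204622 shares 82 bp with that at 16204504 (0.31 and 0.36) and 51 bp with that at 16204771 (0.16 and 0.28). Some elements share most of their sequence. Whether differences between them come from error or from the bases they do not share was not tested. Those at 16215541 and 16215546 share 195 bp and had -0.55 and -0.27 in TC28a2 and -0.07 and -0.09 in SW1353. Those at 16221145 and 16221178 share 167 bp and had -0.20 and -0.20 in TC28a2 and 0.32 and 0.35 in SW1353. Those at 16221683 and 16221699 share 184 bp and had 0.23 and 0.56 in TC28a2 and 0.26 and 0.55 in SW1353. The largest of these differences was 0.33, between 16221683 and 16221699 in TC28a2. The median SE of a single element was 0.18 in TC28a2 and 0.21 in SW1353, and the SE of a difference between elements was not computed.

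Activity varied more between positions than among the alleles of a position. Over the 58 positions with 4 alleles, the SD of the position means over all positions was 0.29 in TC28a2 and 0.29 in SW1353, while the median SD among the alleles of 1 position was 0.14 and 0.17. The activities of the 73 reference elements correlated between the lines with r = 0.621, and the means over the alleles of a position with r = 0.799 over 73 positions. Points of these correlations share the sequences of the library, overlapping elements among them, and are given as a description.

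No element passed the test of a difference in activity between the lines. The interaction of line with RNA against DNA called 0 of 262 elements in edgeR (lowest adjusted p = 0.0865), where 12.3% of all elements and 4.93% of scoliosis elements were called higher in SW1353. At an unadjusted p under 0.05 there were 19 elements (7.25%), 18 of them higher in SW1353, beside 20.6% of all elements and 12.9% of scoliosis elements. DESeq2 called 1, the element with the deletion at 16208200 (0.65 higher in SW1353, adjusted p = 0.0335). The median difference was 0.13 with SW1353 higher, beside 0.18 over all elements, and SW1353 was higher for 178 of 262 elements. Among reference elements the largest differences towards SW1353 were at 16086747 (1.01, SE 0.45), 16210084 (0.78, SE 0.41) and 16222030 (0.77, SE 0.30). At 16222030 the reference element, named for the size of its difference, had 0.01, -0.30 and 0.40 in TC28a2 and 1.08, 0.73 and 0.51 in SW1353. The first 2 of these 3 were thinly covered: at 16086747 the SW1353 libraries held 165, 106 and 100 DNA counts and 1 replicate had 52.2% of its RNA counts in 1 barcode. The largest differences towards TC28a2 were at 16223830 (-0.60, SE 0.36), 16200444 (-0.42, SE 0.28) and 16229382 (-0.42, SE 0.45). None of the 6 passed the test (adjusted p = 0.131 to 0.717 in edgeR). When the highest barcode of each library was left out, 6 elements were called, all higher in SW1353. They were all 4 alleles of 16163426, by 0.48 to 0.53, the deletion at 16208200, by 0.65, and the C alternative at 16222030, by 0.72. The share of all elements called in this setting is not given here. Calls above the scrambled controls rose across the library in it, to 43.0% of all scoliosis elements in TC28a2 and 51.4% in SW1353. The main fit had 27.2% and 37.8%.

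For 4 positions of the locus the library also held a scrambled control named by the variant and spanning the 200 bp around it. At rs11434598, whose control spans 16229282 to 16229482, the scrambled sequence had -0.25, -0.76 and -0.58 in TC28a2 and -0.45, -1.80 and -1.07 in SW1353. The native reference element was higher in 3 of 3 replicates of both lines, by 1.01 and 1.14 in the fitted values. The native element itself was at 0.48 and 0.03, so that its distance in SW1353 came from a low scrambled control, which was called below (adjusted p = 0.0115 in edgeR). In TC28a2 its own first replicate stood at 1.70, with 57.1% of the RNA counts in 1 barcode, and the other 2 at 0.07 and -0.33. At rs11023859, position 16193033, the native element was higher than its scrambled control in 3 of 3 replicates in TC28a2 (0.31 against -0.42) and in 2 of 3 in SW1353 (0.69 against 0.38). At rs4342995, position 16021482, the values were 0.18 against -0.10 and 0.07 against -0.23. At rs10741688, position 16012114, the scrambled control had 0.00, 2.26 and 0.11 in TC28a2, and the native element was lower in the fitted value (0.43 against 0.76) but higher in SW1353 (0.55 against 0.45). Except at rs10741688 in TC28a2, the native sequence was the higher one in the fitted values. Both lines read the same 4 pairs of sequences, and the share over the whole library is not given here. These pairs were not tested.

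No variant of the locus passed the test of an allelic effect. An allelic effect is given here as log2 of the alternative over the reference element's activity, and A16226826C names the reference base, the position on chromosome 11 of hg19 and the tested base. In the model, the term for allele by RNA called 0 of 189 pairs in TC28a2 and 0 in SW1353 in edgeR, where 0.0227% of all pairs were called in each line, and DESeq2 called 0 in both too. At an unadjusted p under 0.05 there were 4 pairs in TC28a2 (2.12%, beside 2.64% of all pairs) and 3 in SW1353 (1.59%, beside 3.27%), and no pair was among them in both lines. The lowest adjusted p in edgeR was 1.00 in TC28a2 and 0.991 in SW1353. The test of whether the allelic effect differed between the lines called 0 of 189 as well, where 0% of all pairs were called. At an unadjusted p under 0.05 it had 2 pairs (beside 1.91% of all pairs), and DESeq2 called 0.

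What could have been missed depends on the errors, and the smallest effect that could have been called was not computed. The median SE of an allelic effect was 0.27 in TC28a2 and 0.30 in SW1353, larger than the medians over all pairs (0.24 and 0.26). The median size of an effect was 0.17 and 0.20, beside 0.14 and 0.18 over all pairs, and thus below the SE of the same pairs. Of the 189 pairs, 176 in TC28a2 and 166 in SW1353 had an effect under 0.5 in size. Effects of 0.5 or more made up 6.88% of them in TC28a2, beside 4.98% of all pairs, and 12.2% in SW1353, beside 9.55%. These are counts of measured effects and set no bound on effects that could have been missed. Pairs with more DNA counts had smaller errors: the median SE was 0.24 in the better covered 95 pairs and 0.30 in the other 94 in TC28a2, and 0.27 and 0.35 in SW1353. Median effect sizes were smaller in the better covered pairs as well, at 0.14 against 0.19 and 0.16 against 0.22.

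The pair with the lowest p in TC28a2 was A16226826C. In TC28a2 the reference element had 0.96, 0.29 and 0.92 and the C element -0.42, -0.09 and 0.05. The allelic effect was -1.38, -0.38 and -0.87 by replicate and fitted at -0.88 (SE 0.28, 95% interval -1.46 to -0.29), with an unadjusted p of 0.00575 in edgeR. In SW1353 it was -0.64, -0.76 and -0.22, fitted at -0.54 (SE 0.27). All 6 replicates were lower with C. The other bases at this position shared the same reference element and were lower in the fitted values too, with A16226826G at -0.60 and -0.24 and A16226826T at -0.39 and -0.21. The effects at a position move together whenever their common reference element is high or low, and here the reference was the highest allele in both lines. Without the highest barcodes the effect of A16226826C was -0.56 and -0.57.

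Position 16215541 stood the other way round, with a low reference element in TC28a2. G16215541A had effects of 1.89, 1.15 and 0.10 in TC28a2, fitted at 1.04 (SE 0.37, 2.05-fold, unadjusted p = 0.0122 in edgeR), and 0.41, -0.21 and 0.25 in SW1353, fitted at 0.15. This was the largest fitted effect of the locus in TC28a2, and its replicates spread over most of its size. G16215541T was at 0.62 (0.00, 1.12 and 0.74 by replicate, unadjusted p = 0.0363 in edgeR) and 0.47, and G16215541C at 0.48 and 0.28. The reference element of 16215546, which shares 195 bp and holds the same base at 16215541, had -0.27 in TC28a2, between the reference element of 16215541 and its T and C alternatives. The fourth pair under 0.05 in TC28a2 was C16210496G, at -0.53 (-0.74, -0.98 and 0.13 by replicate, unadjusted p = 0.0234 in edgeR), with -0.29 in SW1353.

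In SW1353 the pairs with an unadjusted p under 0.05 were C16194177T, C16223830G and the deletion of C at 16219775. C16194177T had 0.83, 0.08 and 0.79 in SW1353, fitted at 0.57 (SE 0.22), and 0.41, 0.29 and 0.26 in TC28a2, fitted at 0.32. It was higher in all 6 replicates. C16223830G had 0.76, 1.60 and 0.57 in SW1353, fitted at 0.97 (SE 0.43), and -1.21, -0.58 and 0.12 in TC28a2, fitted at -0.56. This was the largest difference of an allelic effect between the lines, 1.53 (SE 0.55, unadjusted p = 0.0114, adjusted p = 1.00 in edgeR). A16086747C was the other pair with an unadjusted p under 0.05 for that difference, with 0.40 in TC28a2 and -1.06 in SW1353. Its C element was thinly covered, with 69 to 159 DNA counts per replicate. The remaining pairs named by their low p in SW1353 were A16018737C (-0.32 in TC28a2 and -0.75 in SW1353), T16200444G (-0.19 and 0.75) and G16195941C (0.22 and -0.70). Those named in TC28a2 were C16205595A (0.69 and 0.28) and C16221145G (0.61 and -0.20). In replicate 3 of TC28a2, 60.0% of the RNA counts of the A element of C16205595A came from 1 barcode. Without the highest barcodes C16205595A had 0.29 and 0.31, and C16221145G had 0.44 and -0.20.

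G16005120A shows how far 1 barcode could move a value. Its effects were 0.18, 2.25 and 0.28 in TC28a2 and -0.08, 2.51 and 0.29 in SW1353, fitted at 0.90 (SE 0.44) and 0.87 (SE 0.57). The second replicate alone was high, and it was so in both lines. In that replicate 1 barcode of the A element held 2974 of 3385 RNA counts (87.9%) in TC28a2 and 2661 of 3193 (83.3%) in SW1353. Without the highest barcodes the effects were 0.16 and 0.26. It was the only element of the locus with over 50% of the RNA counts of a replicate in 1 barcode in both lines. There were 15 such elements in TC28a2, 4 of them reference elements, and 14 in SW1353, 5 of them reference elements. The share of such elements over the whole library is not given here. Over the 262 elements of the locus the highest barcode of a library held a median of 8.52% of the RNA counts in TC28a2 and 12.4% in SW1353. Over all elements of the library these medians were 8.50% and 9.70%.

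Between the lines, effects of single pairs corresponded weakly. They had the same sign for 106 of 189 pairs (56.1%), and Pearson's r was 0.192 over pairs that share reference elements. The mean effect of the 3 substitutions of a position correlated with r = 0.352 over 58 positions, while the deviation of each substitution from that mean had r = -0.0960 over 174 pairs. All 3 effects had 1 sign at 33 of 58 positions in TC28a2 and 31 in SW1353. They had the same 1 sign in both lines at 17 positions and opposite signs at 4. The 3 effects of a position share a reference element, and its part in these counts was not tested. At 16158420, where the reference base is G, A, C and T were each lower than G in all 6 replicates. Their fitted effects were -0.43, -0.37 and -0.41 in TC28a2 and -0.34, -0.47 and -0.21 in SW1353, and none had an unadjusted p under 0.05. The G element there had 0.38, 0.92 and 0.16 in TC28a2 and 0.50, 0.71 and 0.71 in SW1353. In all, 9 pairs (4.76%) had 1 sign in all 6 replicates, 3 higher and 6 lower, beside 3.19% of all pairs tested in both lines. Besides those at 16158420, the set held A16226826C, C16194177T, G16215541T, A16018737C and C16205595A, all named before, and G16210084C (-0.23 and -0.59). In replicate 2 of SW1353 the reference element at 16210084 had 9 RNA barcodes, and 50.9% of its RNA counts came from 1 of them. Without the highest barcodes G16210084C had -0.06 and -0.34.

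None of the 15 insertions and deletions passed the test. Their effects ran from -0.55 to 0.24 in TC28a2, with 6 of 15 above 0, and from -0.38 to 0.60 in SW1353, with 9 above 0. The deletion of TGTGTGTGTGCATGTG at 16210951, which removes the most sequence, had -0.01, -0.06 and -0.21 in TC28a2 and 0.83, -0.66 and 0.16 in SW1353. Its fitted effects were -0.09 (95% interval -0.57 to 0.39) and 0.11 (-0.53 to 0.75). The reference element there was above 0 in both lines (0.54 and 0.13). The AGA insertions had -0.29 and 0.07 at 16015006 and 0.00 and -0.19 at 16206447. The deletion of C at 16219775 was the one with an unadjusted p under 0.05, in SW1353, at -0.40, -0.25 and -0.49 by replicate and -0.38 (SE 0.17) in the fit. In TC28a2 the same deletion had -0.33, 0.46 and -0.69, fitted at -0.19. The largest effect of an insertion was that of A at 16224877 in SW1353, 0.60 from replicates of -0.04, 1.38 and 0.46, while TC28a2 had -0.24. The insertion of G at 16229382 had -2.06 in the first replicate of TC28a2, the one in which its reference element had most RNA counts in 1 barcode, and -0.03 and 0.44 in the other replicates. The remaining single-base insertion, A at 16191117, had 0.24 and -0.08, and deletions of 2 or 3 bases had 0.03 and -0.04 (GT), -0.13 and 0.03 (AT) and 0.18 and 0.10 (AAC).

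Median effects were compared by kind of base change as a description, with no test. The 58 transitions had a median effect of 0.01 in TC28a2 and 0.00 in SW1353, and the 116 transversions 0.03 and -0.03. Changes from A or T to C or G had medians of -0.01 and -0.05 (54 pairs) and those from C or G to A or T 0.09 and 0.01 (62 pairs). By reference base, changes from G had the highest median in both lines (0.11 and 0.10, 36 pairs over 12 positions).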

How the data were processed

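Barcode counts of a lentiviral reporter library were read from DNA and RNA of TC28a2 and SW1353 cells, with 3 replicates of each. The authors deposited the counts as whole numbers per barcode, element and allele, without normalization, and per the file headers for up to 500 barcode positions of each replicate. The cleaning of barcodes, the counting program and whether molecules or reads were counted are not stated in these sources, so the SEs and intervals rest on the spread between replicates only. The genome build, hg19, is taken from the submitters' processing notes.

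Counts were summed over the barcode positions of an element, allele and replicate. Elements needed at least 10 DNA barcodes in every replicate. Activity was the RNA term of a model blocked by replicate, minus that of the median scrambled control. Allelic effects were the term for allele by RNA, blocked by library pair. Both came from edgeR 4.0.16 in R 4.3.3, with TMM factors and the two-sided quasi-likelihood test; intervals use its t quantile. Fits ran on all elements or pairs of a line, with Benjamini-Hochberg adjustment over all of them and a threshold of 0.05. Differences between lines were tested as interactions with line. DESeq2 1.42.0 was an alternative. Further alternatives were library sizes without TMM factors, a minimum of 30 DNA barcodes or none, no replicate block, each replicate left out, the highest barcode of each library left out, elements at position 500 left out, counts per barcode, and the median of all elements as the zero of activity. The scripts were tested on simulated data.

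DNA and RNA of a replicate were isolated together, per the labels, which is the basis of the block. Deviations of same-numbered DNA and RNA from their group means correlated by -0.0117 to 0.0206 in TC28a2 and -0.00135 to 0.0230 in SW1353. For every library type except SW1353 RNA, counts at the same barcode position correlated between replicates at the first 10 positions (r = 0.205 to 0.307), and from position 51 to 200 hardly more with the same position (0.141 to 0.190) than with the next (0.133 to 0.191). In SW1353 RNA, checked in 7 elements, r was -0.141 to 0.0444. Columns labelled as 1 replicate may thus hold barcodes of several samples, and what part of the spread between them is one between sets of barcodes was not tested.

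The members and lists were chosen with earlier results of these data known. Named were the pairs and elements with the lowest p, the largest effects of 1 sign, the highest and lowest reference elements of each line, the largest differences between lines, and all insertions and deletions. Other members named as neighbours, for their alleles, their scrambled controls or their barcodes were chosen after their values were seen. The sample that links barcodes to elements was not used.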

Additional observations from a re-analysis of the deposited data

How the results depend on the processing

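Over the summary counts and the members named by rule, 1132 alternative values kept their direction and side of the threshold, 63 changed sign, 45 fell short of the threshold, 11 newly passed it and 44 values or counts moved further than their limit (counts by over 1.5 times). The number of elements called above was 35 in TC28a2 and 47 in SW1353. Without the highest barcode of each library it was 70 and 89, as counts per barcode 21 and 4, and relative to the median of all elements 5 and 4. The locus had a lower share above than all scoliosis elements in each of these settings, at 26.7% against 43.0% in TC28a2 and 34.0% against 51.4% in SW1353 without the highest barcodes, 8.02% against 18.6% and 1.53% against 5.49% per barcode, and 1.91% against 6.39% and 1.53% against 10.2% relative to all elements. The number called below was 11 in TC28a2 and 3 in SW1353, and became 5 and 1 without elements that reach position 500, 3 and 0 per barcode, and 19 and 22 relative to all elements. With each replicate left out in turn, 21 to 27 elements were above and 1 to 6 below in TC28a2, and 37 to 38 above and 0 to 1 below in SW1353. Those above were 8.02% to 10.3% of the locus in TC28a2, beside 17.6% to 18.4% of all scoliosis elements. In SW1353 they were 14.1% to 14.5%, beside 31.2% to 31.5%. Of the elements above, 12 of 35 in TC28a2 and 17 of 47 in SW1353 were above whichever replicate was left out. For the counts below, the shares over all scoliosis elements in these settings are not given here, so they cannot be read as particular to the locus.

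A fit with no replicate block had 39 elements (14.9%) above in TC28a2 and 54 (20.6%) in SW1353, where 27.9% and 39.0% of all scoliosis elements were. For an allelic effect it had 5 pairs in each line with an unadjusted p under 0.05 in edgeR. The share over all pairs in that fit is not given here. The blocked fit had 4 and 3 such pairs. The difference in activity between the lines, called for 0 elements, was called for 1 in DESeq2, for 1 with no replicate block (the G alternative at 16086747), for 6 without the highest barcodes, and for 0 to 1 with a replicate left out (the reference element at 16195941 without replicate 1, the G alternative at 16223830 without replicate 3). The shares of all elements called for that difference in these settings are not given here. Allelic effects, and their difference between the lines, were called for 0 pairs in every setting that was run.

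Sign changes were common over the whole locus. Of the 73 reference elements, 7 in TC28a2 and 30 in SW1353 changed sign as counts per barcode, 22 and 37 relative to all elements, 2 and 6 without the highest barcodes, and 24 and 24 with at least 1 replicate left out. Of the 189 allelic effects, 28 and 35 changed sign per barcode, 28 and 25 without the highest barcodes, 4 and 13 with no replicate block, and 105 and 96 with at least 1 replicate left out. Values are given in what follows for the members named by rule. Their reference elements that changed sign as counts per barcode were 16041156 (0.060), 16199331 (0.0006), 16204622 (-0.0325) and 16229382 (-0.36) in SW1353 and 16222030 (-0.058) in TC28a2. Relative to all elements these were 16200444 (-0.21) and 16222030 (-0.25) in TC28a2 and 16210084 (-0.18), 16226826 (-0.0595) and 16229382 (-0.42) in SW1353. The reference element at 16210084 had -0.13 in SW1353 without the highest barcodes, and that at 16223830 had 0.02 in TC28a2 without elements at position 500. Of these, 16041156 and 16204622 had been called in SW1353.

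No allelic effect that changed sign was called in any setting. Among the pairs named by rule, effects of the other sign without the highest barcodes were those of the deletions of GT at 16069247 (-0.0132 in TC28a2, 0.13 in SW1353), AT at 16127889 (0.14 and -0.10), A at 16204883 (0.0525 in TC28a2) and A at 16211243 (0.0273 in SW1353), and of the insertions of A at 16191117 (-0.12 in TC28a2) and AGA at 16206447 (-0.0197 in TC28a2). Per barcode they were AGA at 16206447 (-0.0436) and the deletion of A at 16229139 (-0.0372) in TC28a2, and the deletion of A at 16211243 (0.10), G16215541A (-0.0479) and A16226826G (0.035) in SW1353. With no replicate block they were the deletions of AT at 16127889 (-0.0159 in SW1353) and of A at 16204883 (0.0016 in TC28a2).

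Leaving out each replicate in turn gave values of both signs for these members named by rule, each as a range. In TC28a2 the reference elements at 16195941 (-0.0262 to 0.59), 16200444 (-0.037 to 0.31), 16222030 (-0.16 to 0.24), 16223830 (-0.28 to 0.17) and 16229382 (-0.14 to 0.89) did so. In SW1353 those at 16199331 (-0.31 to 0.0529), 16215541 (-0.18 to 0.0835) and 16229382 (-0.021 to 0.11) did, and the difference between the lines at 16229382 ran from -0.74 to 0.16. Among allelic effects in TC28a2 they were the deletions at 16069247 (-0.12 to 0.13), 16127889 (-0.52 to 0.31), 16174309 (-0.44 to 0.70), 16204883 (-0.31 to 0.24), 16211243 (-0.20 to 0.12), 16219775 (-0.51 to 0.0644), 16226126 (-0.14 to 0.38) and 16229139 (-0.24 to 0.30), the insertions at 16191117 (-0.15 to 0.49), 16206447 (-0.03 to 0.0409) and 16229382 (-1.06 to 0.21), and A16086747C (-0.0381 to 0.66) and G16195941C (-0.0937 to 0.73). In SW1353 they were the deletions at 16069247 (-0.22 to 0.0604), 16127889 (-0.77 to 0.81), 16174309 (-0.31 to 0.23), 16208200 (-0.0102 to 0.43), 16210951 (-0.25 to 0.49), 16211243 (-0.14 to 0.0753), 16226126 (-0.17 to 0.36) and 16229139 (-0.38 to 0.42), the insertion at 16191117 (-0.39 to 0.21) and A16226826G (-0.45 to 0.0688). The cause of these changes was not tested.

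The median SE of an allelic effect was 0.27 in TC28a2 and 0.30 in SW1353, beside median effect sizes of 0.17 and 0.20, so that effects of that size were not detectable at this depth with 3 replicates.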

Other observations

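The library held a scrambled control named by rs34569224, which spans 16031522 to 16031722 on chromosome 11 (hg19), while no allele pair of the locus is centred there. Its activity was 0.31 (SE 0.18) in TC28a2, from replicates of 0.22, 0.47 and 0.24, and -0.27 (SE 0.28) in SW1353, from replicates of -0.94, 0.24 and -0.13. Neither passed the test (adjusted p = 0.205 and 0.433 in edgeR).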
